A study of Homo sapiens with 24 samples.

Results

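The 9 genes described here are p53 target and feedback genes: MDM2, MDM4 and PPM1D, which restrain p53; BTG2 and SESN1, which act in growth arrest; DDB2, which recognises damaged DNA; ZMAT3, which binds RNA; and TP53INP1 and TP53I3, which act in stress and cell death. They were chosen by gene symbol, and all 9 were present among the 14493 genes of the read-count table. The cells were SKBR3, a HER2-amplified human breast cancer line that carries a mutant p53, and the study asked how their RNA changes when drugs with different targets bring on therapy-induced senescence (TIS). RNA was sequenced in 24 libraries, 3 in each of 8 groups.

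The 2 control groups were untreated cells at day 0 and untreated cells at day 7. The 6 drugs were given for 7 days. The labels name a refeeding at day 3 for these groups but for neither untreated group. In each comparison with day 7, drug and refeeding therefore cannot be told apart. In each comparison with day 0, drug, refeeding and 7 days of culture cannot be told apart. Words such as raised, rose or fell describe the difference between groups only. ND-646, an inhibitor of acetyl-CoA carboxylase, was used at 250 nmol/L, and TVB-3166, an inhibitor of fatty acid synthase, at 250 nmol/L; they are called lipogenesis inhibitors here. Bleomycin at 10 µmol/L and doxorubicin at 10 nmol/L are the DNA-damaging drugs. Palbociclib at 1 µmol/L, which the labels spell Palboclib and which inhibits CDK4/6, and alisertib at 500 nmol/L, which inhibits Aurora kinase A, are called cell-cycle kinase inhibitors. All groups come from the same line and carry the same mutant p53, so no p53-normal cells enter any comparison, and the doses differ between drugs. No source says that the 3 libraries of a group came from separate cultures, and p-values then measure only the spread between these libraries.

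p53 is a transcription factor that is stabilised when cells are stressed, binds a pair of short DNA motifs near its target genes and switches those genes on. The targets include genes that stop the cell cycle, repair DNA or start cell death, and also genes that switch p53 off again: MDM2, a ubiquitin ligase that marks p53 for destruction, its relative MDM4, which masks the part of p53 that activates transcription, and PPM1D, a phosphatase that removes activating phosphates. Many mutant forms of p53 bind these motifs poorly, and most of the targets also answer to other transcription factors.

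Total counts per library ran from 29405121 to 44316330 (median 32053038), and no gene had a count under 1 in any library. Epithelial identity was checked with 8 markers of HER2-amplified luminal cells, of which 7 were in the table and CDH1 was not. The summed level of the 7 was 10006 to 20209 CPM, which are read counts scaled to library size. These markers do not single out the SKBR3 line. The other marker lists held 1 of 6 fibroblast markers (COL1A1, 6.43 to 15.3 CPM), 1 of 5 leukocyte markers (CD68, 3.70 to 56.4 CPM) and 2 of 3 endothelial markers (VWF and CDH5, summed 2.88 to 47.8 CPM). Their part in the results was not tested. The lowest correlation between replicates was 0.972, within ND-646, while in the other groups the lowest ranged upward from 0.985. In ND-646 and in bleomycin, replicate 1 had the lowest MDM4 and TP53INP1 levels of its group, and values without these libraries are given where they matter.

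Promoter sequence was available for 8 of the 9 genes, in 15 windows reaching from 250 bases before to 50 bases after a transcription start (RefSeq, GRCh38.p14; the counts were made on GRCh37, and no coordinates were carried between builds). The windows were searched for the p53 consensus decamer, which reads the same on both strands, and for a pair of decamers at most 1 base apart with at most 2 mismatches in the pair. Over all 35116 windows, 6.63% held a perfect decamer, 1.34% held a pair and 0.0199% (7 windows) held a pair with no mismatch. Of the 8 genes searched, DDB2 and MDM2 had a pair. TP53INP1 had no window and was not searched. The windows of MDM4 and BTG2, whose levels moved most clearly among the genes without a match, are printed beside them; capitals mark the pair.

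DDB2, chr11:47214724-47215003, plus strand, from 250 bases before to 30 bases after the start: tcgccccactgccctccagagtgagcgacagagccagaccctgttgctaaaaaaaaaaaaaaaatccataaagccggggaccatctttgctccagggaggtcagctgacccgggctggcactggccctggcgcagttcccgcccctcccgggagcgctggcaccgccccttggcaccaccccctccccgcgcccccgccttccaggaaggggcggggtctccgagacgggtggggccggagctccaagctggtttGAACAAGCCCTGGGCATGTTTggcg
MDM2, chr12:68808767-68809016, plus strand, 250 bases before a downstream start: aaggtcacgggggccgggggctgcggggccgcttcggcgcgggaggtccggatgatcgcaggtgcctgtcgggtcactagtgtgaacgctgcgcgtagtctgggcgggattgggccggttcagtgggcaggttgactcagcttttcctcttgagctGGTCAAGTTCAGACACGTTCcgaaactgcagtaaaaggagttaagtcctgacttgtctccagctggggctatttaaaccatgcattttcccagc
MDM4, chr1:204516156-204516405, plus strand, 250 bases before the start: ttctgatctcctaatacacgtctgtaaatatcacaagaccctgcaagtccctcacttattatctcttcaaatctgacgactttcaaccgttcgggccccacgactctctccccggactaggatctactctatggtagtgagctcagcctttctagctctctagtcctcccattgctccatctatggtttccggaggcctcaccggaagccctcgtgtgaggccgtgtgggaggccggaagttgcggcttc
BTG2, chr1:203305269-203305518, plus strand, 250 bases before the start: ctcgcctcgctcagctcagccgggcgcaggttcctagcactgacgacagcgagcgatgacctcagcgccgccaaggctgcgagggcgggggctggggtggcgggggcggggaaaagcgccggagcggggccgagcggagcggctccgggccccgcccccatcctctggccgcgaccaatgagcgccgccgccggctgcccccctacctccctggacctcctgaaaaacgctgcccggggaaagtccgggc

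The DDB2 pair, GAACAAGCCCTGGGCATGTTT, lay at positions 6 to 26 after the start, had 1 base between its decamers and had no mismatch; it overlaps with another pair, at positions -5 to 15, that had 1 mismatch. The MDM2 pair, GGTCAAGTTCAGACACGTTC, lay at positions -94 to -75 of a downstream start and had 2 mismatches; the window of a start 7 bases further on, where it lies at -101 to -82, holds the same pair. Of the 3 SESN1 windows, 1 held a single decamer, GGACAAGTCT, at positions -49 to -40. No match was found in the windows of MDM4, PPM1D, BTG2, ZMAT3 or TP53I3. A match describes letters only, and no binding was measured. Sites outside these windows or of another form were not searched for. A missing match therefore does not show that a gene lacks a p53 site.

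MDM2 was by far the most abundant of the 9 transcripts for its length. In untreated day-0 cells it stood at 13.5 ± 1.76 CPM per kb of exon (SD, n = 3), and it ranked first in all 8 groups, from 12.3 to 14.5 CPM per kb. BTG2 came next at day 0, at 2.42 ± 0.583 CPM per kb, and DDB2 was at 2.02 ± 0.0410 CPM per kb. TP53INP1 was lowest at day 0, at 0.435 ± 0.127 CPM per kb. The group means of TP53INP1 spanned 9.01-fold, those of BTG2 4.36-fold, those of DDB2 3.29-fold and those of MDM4 2.33-fold. The group means of MDM2 spanned 1.18-fold. These ratios are descriptions of the levels shown by library in the plot of CPM by group.

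**Figure D1:**
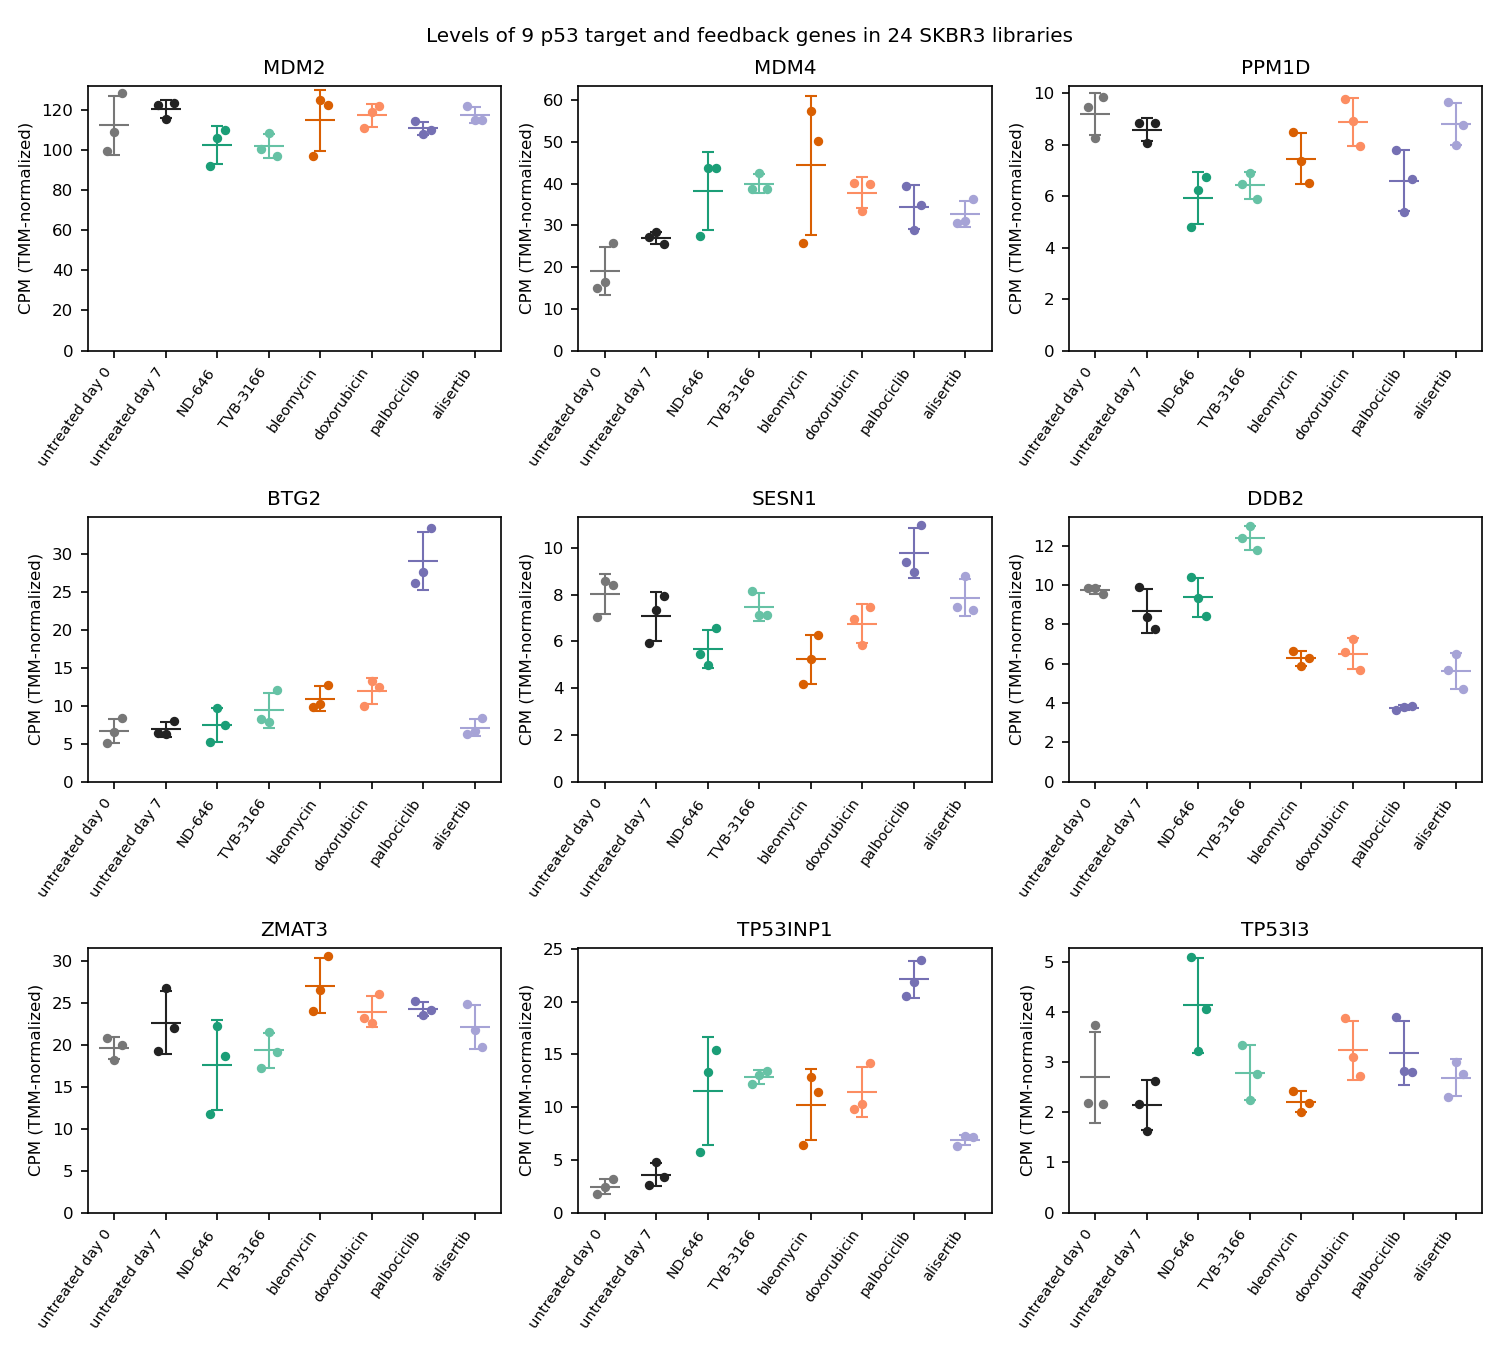
Level of each of the 9 genes (y axis, TMM-normalised CPM, linear from 0) in the 8 groups (x axis); points are the 3 libraries of a group, the long dash is their mean and the bars are the SD. TP53INP1 and BTG2 stand highest in palbociclib, DDB2 stands lowest there, and MDM2 overlaps between neighbouring groups throughout.

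As a set, the 9 genes passed the test about as often as genes in general. Against untreated day-0 cells (edgeR's quasi-likelihood test, adjusted p under 0.05 over all genes), ND-646 raised 2 and lowered 1 of them, beside 19.1% and 18.8% of all genes (37.9% in either direction). TVB-3166 raised 3 and lowered 1, beside 27.4% and 27.7% of all genes (55.1%). Bleomycin raised 4 and lowered 2, beside 24.1% and 25.3% (49.4%), and doxorubicin raised 4 and lowered 1, beside 23.7% and 24.8% (48.4%). Palbociclib raised 4 and lowered 2, beside 26% and 27.2% (53.2%), and alisertib raised 2 and lowered 1, beside 17.7% and 19.6% (37.3%). With 9 genes these shares lie near the background, and nothing is read from them about the set. TP53INP1 and MDM4 passed as higher with every drug, as did 6.51% of the 13446 genes tested in all 6 comparisons, which share the same 3 day-0 libraries.

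Of the genes that restrain p53, MDM2 did not pass the test with any drug relative to day 0. It stood at 99.5, 109 and 128 CPM in the 3 day-0 libraries and at 122, 115 and 123 CPM in the day-7 libraries. The 18 drug-treated libraries fell within the span of 91.7 to 125 CPM. These ranges overlap in every comparison with day 0. The log2 fold changes against day 0 ran from -0.13 to 0.08, with adjusted p from 0.319 to 0.893. The widest of the 95% intervals, in ND-646, ran from -0.48 to 0.21, and the interval for bleomycin ran from -0.27 to 0.34.

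Against untreated day-7 cells MDM2 was lower in TVB-3166, by a log2 fold change of -0.23 ± 0.07 (SE; adjusted p = 0.0221). The 3 TVB-3166 libraries stood at 101, 108 and 96.8 CPM, all below the day-7 libraries. The call was lost without TVB-3166 replicate 3 (log2 -0.20, adjusted p = 0.0862, edgeR) and without untreated day-7 replicate 3 (log2 -0.21, adjusted p = 0.0866, edgeR), and in a fit of all 24 libraries (adjusted p = 0.0636). MDM2 overlaps in its exons with an antisense gene, CPM, over 133 bases, with an antisense long non-coding RNA over 785 bases and with a processed pseudogene on its own strand over 439 bases. Whether the counting used strand is not given in the sources used here, so reads in these stretches are uncertain.

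MDM4, which binds p53 and holds back its activity, rose with all 6 drugs against day 0. It stood at 14.98, 16.5 and 25.7 CPM at day 0. The lipogenesis inhibitors gave 27.5, 43.8 and 43.7 CPM (ND-646) and 38.7, 42.7 and 38.8 CPM (TVB-3166). Every library of these groups was above every day-0 library. Bleomycin gave 25.7, 57.5 and 50.1 CPM and doxorubicin 40.2, 33.5 and 40.03 CPM. Palbociclib gave 39.5, 28.8 and 34.8 CPM and alisertib 30.7, 31.2 and 36.4 CPM. Bleomycin replicate 1 was the lowest of the 18 treated libraries and lay just above the highest day-0 library.

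Against day 0 the MDM4 log2 fold change was 1.00 ± 0.26 in ND-646 (SE; adjusted p = 0.0157), 1.08 ± 0.18 in TVB-3166 (adjusted p = 0.000395) and 1.23 ± 0.30 in bleomycin (adjusted p = 0.00713). It was 1.00 ± 0.19 in doxorubicin (adjusted p = 0.00174), 0.85 ± 0.20 in palbociclib (adjusted p = 0.00429) and 0.78 ± 0.18 in alisertib (adjusted p = 0.00825). In 34 of the 36 fits that left out a single library the call held. It was lost in ND-646 without untreated day-0 replicate 1 (log2 0.85, adjusted p = 0.0681, edgeR) and without untreated day-0 replicate 2 (log2 0.90, adjusted p = 0.0712, edgeR).

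Relative to untreated day-7 cells, at 27.2, 28.4 and 25.5 CPM, the MDM4 differences were smaller. They passed the test in 5 of the 6 drugs, with log2 fold changes from 0.29 in alisertib (adjusted p = 0.0498) to 0.74 in bleomycin (adjusted p = 0.0353). In ND-646 the value was 0.51 ± 0.20 (adjusted p = 0.0770), and without ND-646 replicate 1 it was 0.69 (adjusted p = 0.000173). Only the TVB-3166 and doxorubicin calls held with every library left out in turn. Bleomycin lost its call without bleomycin replicate 2 (log2 0.50) or 3 (log2 0.63) and without any of the day-7 libraries (log2 0.70 to 0.77), and rose to 0.99 without bleomycin replicate 1. Palbociclib lost its call without its replicate 1 (log2 0.25) or 3 (log2 0.35) and alisertib without its replicate 2 (log2 0.33) or 3 (log2 0.21). Both also lost it without untreated day-7 replicate 1 (log2 0.37 and 0.29) or 3 (log2 0.33 and 0.25). In a fit of all 24 libraries the calls of doxorubicin (adjusted p = 0.0986), palbociclib (adjusted p = 0.238) and alisertib (adjusted p = 0.486) were lost, and that of alisertib also with RLE size factors (adjusted p = 0.0518) and with no filter (adjusted p = 0.0563).

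PPM1D, the phosphatase, was the gene among these 3 that passed as lower against day 0. It stood at 9.48, 8.28 and 9.86 CPM at day 0, at 4.80, 6.25 and 6.77 CPM in ND-646 and at 6.49, 6.90 and 5.88 CPM in TVB-3166. No library of either lipogenesis inhibitor reached the day-0 range. In palbociclib it stood at 7.79, 5.40 and 6.66 CPM. PPM1D fell in ND-646 (log2 -0.63 ± 0.21, adjusted p = 0.0392), TVB-3166 (log2 -0.51 ± 0.15, adjusted p = 0.0140) and palbociclib (log2 -0.47 ± 0.17, adjusted p = 0.0392). The values in bleomycin (-0.30), doxorubicin (-0.04) and alisertib (-0.07) did not pass the test.

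Each of these PPM1D calls was lost in some of the fits that left out a library. In ND-646 the call held only without ND-646 replicate 1 (log2 -0.50); it was lost without each day-0 library (log2 -0.59 to -0.71) and without ND-646 replicate 2 (log2 -0.68) or 3 (log2 -0.74). In TVB-3166 it was lost without TVB-3166 replicate 3 (log2 -0.45). In palbociclib it was lost without untreated day-0 replicate 1 (log2 -0.45) or 3 (log2 -0.42) and without palbociclib replicate 2 (log2 -0.34) or 3 (log2 -0.48). Against day 7, PPM1D fell in TVB-3166 (log2 -0.41 ± 0.14, adjusted p = 0.0245), and this call was lost without untreated day-7 replicate 1 (log2 -0.39) or 3 (log2 -0.39) and without TVB-3166 replicate 3 (log2 -0.35). The values for ND-646 (-0.53) and palbociclib (-0.36) did not pass against day 7, but did without ND-646 replicate 1 (log2 -0.41) and without palbociclib replicate 1 (log2 -0.50).

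Among the growth-arrest genes, BTG2, an antiproliferative regulator of mRNA turnover, rose most in palbociclib. It stood at 5.14, 6.56 and 8.35 CPM at day 0 and at 26.2, 27.7 and 33.5 CPM in palbociclib. The lowest palbociclib library was well above all other libraries of the study. The log2 fold change was 2.13 ± 0.18 (adjusted p = 9.07e-06) against day 0 and 2.09 ± 0.14 (adjusted p = 2.27e-06) against day 7, and both calls held with each library left out.

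Smaller BTG2 increases were found with the DNA-damaging drugs. Bleomycin gave 9.82, 10.2 and 12.8 CPM (log2 0.72 ± 0.21, adjusted p = 0.0186) and doxorubicin 10.0, 13.2 and 12.5 CPM (log2 0.85 ± 0.19, adjusted p = 0.00539). Neither overlapped with the day-0 libraries. The doxorubicin call held with each library left out, while the bleomycin call was lost without untreated day-0 replicate 1 (log2 0.55) or 2 (log2 0.71) and without bleomycin replicate 3 (log2 0.60). Both drugs also passed against day 7 (log2 0.68 and 0.81). BTG2 in ND-646 (5.19, 9.69 and 7.43 CPM), TVB-3166 (8.23, 7.88 and 12.1 CPM) and alisertib (6.22, 6.69 and 8.42 CPM) overlapped with day 0 and did not pass. The TVB-3166 value, 0.50 (adjusted p = 0.0743), became 0.69 (adjusted p = 0.0276) without untreated day-0 replicate 3, and against day 7 its value of 0.45 became 0.54 without TVB-3166 replicate 1 and 0.56 without replicate 2, both then passing.

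SESN1, a sestrin that dampens growth signalling through mTORC1, was at 7.04, 8.60 and 8.41 CPM at day 0. In bleomycin it stood at 4.17, 5.24 and 6.28 CPM, all below day 0, and it fell by 0.61 ± 0.21 on the log2 scale (adjusted p = 0.0326). This call was lost without bleomycin replicate 1 (log2 -0.47) or 2 (log2 -0.61) and without untreated day-0 replicate 2 (log2 -0.56) or 3 (log2 -0.57). Palbociclib had the highest SESN1 levels, at 9.38, 8.99 and 10.98 CPM. They passed the test against day 7 (log2 0.49 ± 0.16, adjusted p = 0.0251) but not against day 0 (log2 0.29 ± 0.15, adjusted p = 0.135). The day-7 call was lost without untreated day-7 replicate 1 (log2 0.37) or palbociclib replicate 3 (log2 0.39). SESN1 overlaps with an antisense long non-coding RNA over 363 bases of exon.

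DDB2, which recognises ultraviolet damage for nucleotide excision repair, moved in both directions. It was at 9.87, 9.88 and 9.53 CPM at day 0, and palbociclib gave 3.65, 3.81 and 3.85 CPM, the lowest of all groups and with no overlap with any other. Bleomycin gave 6.66, 5.87 and 6.31 CPM and doxorubicin 6.61, 7.24 and 5.68 CPM. Alisertib gave 5.66, 6.50 and 4.69 CPM. All 12 libraries of these drugs lay below every untreated library. TVB-3166 gave 12.4, 13.0 and 11.8 CPM, above every other library, and ND-646 gave 10.4, 9.33 and 8.42 CPM, around the day-0 level.

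Against day 0, DDB2 fell by 1.37 ± 0.15 on the log2 scale in palbociclib (adjusted p = 3.985e-05), by 0.80 ± 0.16 in alisertib (adjusted p = 0.00334), by 0.63 ± 0.16 in bleomycin (adjusted p = 0.00808) and by 0.57 ± 0.14 in doxorubicin (adjusted p = 0.00859). These calls held with each library left out. The rise in TVB-3166, 0.35 ± 0.13 (adjusted p = 0.0344), was lost in all 6 fits that left out a library, day-0 replicates 1 to 3 and TVB-3166 replicates 1 to 3 alike, with log2 values of 0.32 to 0.39. DDB2 in ND-646 changed by -0.06 (95% interval -0.45 to 0.33).

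Against day 7 the TVB-3166 increase in DDB2 was larger, at 0.52 ± 0.13 (adjusted p = 0.00706), and held with each library left out. Palbociclib was lower by a log2 of -1.19 ± 0.15 (adjusted p = 0.000126), alisertib by -0.62 ± 0.16 (adjusted p = 0.0234) and bleomycin by -0.45 ± 0.16 (adjusted p = 0.0440). The doxorubicin value, -0.39 ± 0.16, had an adjusted p of 0.0598, and without doxorubicin replicate 2 it was -0.48 (adjusted p = 0.0407). The palbociclib call held throughout. The alisertib call was lost without untreated day-7 replicate 1 (log2 -0.52) or alisertib replicate 3 (log2 -0.50). The bleomycin call held only without bleomycin replicate 1 (log2 -0.51), and was lost without bleomycin replicate 2 (log2 -0.41) or 3 (log2 -0.46) and without day-7 replicates 1 (log2 -0.34), 2 (log2 -0.48) and 3 (log2 -0.53). With no filter it was also lost (adjusted p = 0.0517).

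ZMAT3, an RNA-binding protein that affects splicing and mRNA stability, passed as higher with 3 of the 6 drugs against day 0, by small amounts. It stood at 20.8, 18.2 and 20.01 CPM at day 0 and at 24.04, 26.6 and 30.6 CPM in bleomycin, 23.2, 22.6 and 26.1 CPM in doxorubicin and 25.2, 23.5 and 24.1 CPM in palbociclib. ND-646, at 11.7, 22.3 and 18.7 CPM, TVB-3166, at 17.3, 21.5 and 19.2 CPM, and alisertib, at 24.9, 21.8 and 19.7 CPM, overlapped with day 0 and did not pass (log2 -0.16, -0.02 and 0.16). None of the bleomycin, doxorubicin and palbociclib libraries overlapped with day 0. Their log2 fold changes were 0.47 ± 0.13 (adjusted p = 0.0153), 0.30 ± 0.11 (adjusted p = 0.0437) and 0.31 ± 0.11 (adjusted p = 0.0327).

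ZMAT3 did not pass with any drug against day 7, where untreated cells stood at 19.3, 26.8 and 22.0 CPM: adjusted p by edgeR ran from 0.157 to 0.929. The bleomycin call against day 0 was lost without untreated day-0 replicate 2 (log2 0.42) or bleomycin replicate 3 (log2 0.37). The doxorubicin call held only without untreated day-0 replicate 1, and was lost without day-0 replicates 2 and 3 (log2 0.24 and 0.31) and doxorubicin replicates 1, 2 and 3 (log2 0.31, 0.34 and 0.24). The palbociclib call likewise was lost without day-0 replicates 2 and 3 (log2 0.27 and 0.32) and palbociclib replicates 1, 2 and 3 (log2 0.27, 0.33 and 0.31). A fit of all 24 libraries lost both (adjusted p = 0.167 and 0.131), and with no filter the doxorubicin call was lost (adjusted p = 0.0598).

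Of the stress and cell-death genes, TP53INP1, which promotes autophagy and cell death and assists p53 phosphorylation, had the largest rise of the 9. It was at 1.73, 2.46 and 3.17 CPM at day 0 and at 2.64, 4.78 and 3.36 CPM at day 7. Palbociclib gave 20.5, 21.8 and 23.97 CPM, the highest levels of any group. ND-646 gave 5.78, 13.4 and 15.4 CPM, TVB-3166 12.1, 13.0 and 13.4 CPM, and bleomycin 6.42, 12.8 and 11.4 CPM. Doxorubicin gave 9.84, 10.3 and 14.1 CPM and alisertib 6.35, 7.25 and 7.12 CPM. All 18 treated libraries were above all 6 untreated libraries.

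The TP53INP1 log2 fold change against day 0 was 3.18 ± 0.20 in palbociclib (adjusted p = 1.998e-06), 2.40 ± 0.21 in TVB-3166 (adjusted p = 5.315e-06), 2.23 ± 0.24 in doxorubicin (adjusted p = 9.01e-05) and 2.23 ± 0.39 in ND-646 (adjusted p = 0.00253). It was 2.07 ± 0.31 in bleomycin (adjusted p = 0.000621) and 1.49 ± 0.22 in alisertib (adjusted p = 0.000941). All 36 fits against day 0 that left out a library kept the call. Against day 7 the values ran from 0.97 ± 0.21 in alisertib (adjusted p = 0.0105) to 2.64 ± 0.19 in palbociclib (adjusted p = 3.298e-06), and all 6 drugs passed; the ND-646 value of 1.69 lost its call without untreated day-7 replicate 1 (adjusted p = 0.0552), and the alisertib value in a fit of all 24 libraries (adjusted p = 0.0502). TP53INP1 overlaps with the antisense gene NDUFAF6 over 225 bases of exon.

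TP53I3, a quinone oxidoreductase linked to oxidative stress, did not pass against day 0 with any drug when each pair of groups was fitted alone, the lowest adjusted p being 0.148 in ND-646 (log2 0.61 ± 0.31, edgeR). In a fit of all 24 libraries it passed in ND-646 (log2 0.62, adjusted p = 0.0360). It was at 2.19, 3.74 and 2.16 CPM at day 0, at 2.17, 1.62 and 2.61 CPM at day 7 and at 5.10, 3.22 and 4.07 CPM in ND-646. The ND-646 libraries overlapped with day 0 but not with day 7. Against day 7 it rose in ND-646 (log2 0.95 ± 0.27, adjusted p = 0.0289) and in doxorubicin (log2 0.63 ± 0.23, adjusted p = 0.0451). The ND-646 call was lost without each day-7 library (log2 0.78 to 1.11) and without ND-646 replicate 3 (log2 0.95); the doxorubicin call was lost without day-7 replicate 1 (log2 0.64) or 2 (log2 0.45) and without doxorubicin replicate 1 (log2 0.48) or 2 (log2 0.65), with no filter (adjusted p = 0.0551) and in a fit of all 24 libraries (adjusted p = 0.0645). With 56 to 166 reads per library, TP53I3 had the lowest counts of the 9, and it overlaps with the antisense gene FAM228B over 80 bases.

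**Figure D2:**
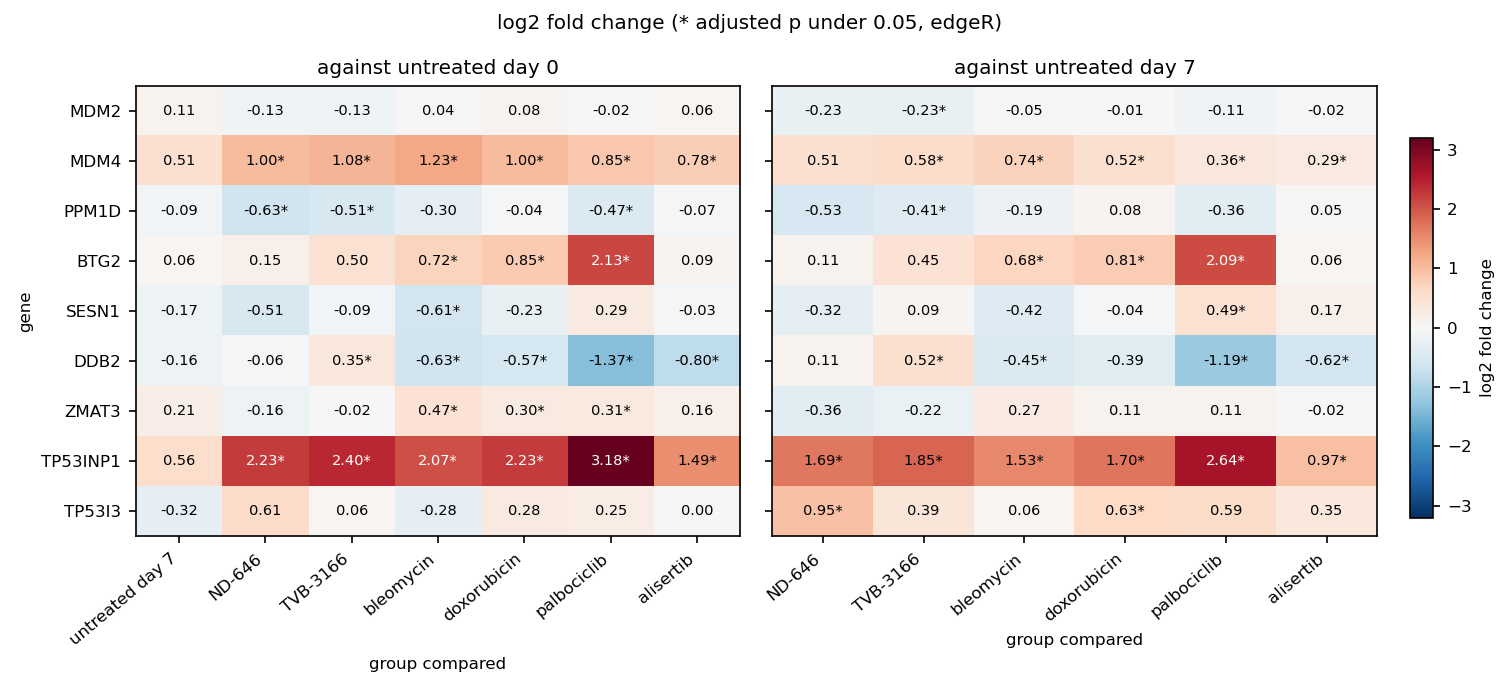
log2 fold change of each gene (rows; the value is written in each cell, and colour runs from blue for lower to red for higher) for untreated day 7 and the 6 drugs against untreated day 0 (left) and for the drugs against untreated day 7 (right); an asterisk marks an adjusted p under 0.05. TP53INP1 carries an asterisk in all 12 drug columns and MDM4 in 11, while MDM2 carries 1.

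Time in culture without drug was tested by comparing untreated day 7 with untreated day 0. With edgeR 0 of the 9 genes passed (0.587% of all genes passed, 0.389% as higher and 0.198% as lower), 1 had an unadjusted p under 0.05, and DESeq2 also called 0. The nearest were MDM4, at 0.51 ± 0.18 (adjusted p = 0.140, 95% interval 0.11 to 0.91), and TP53INP1, at 0.56 ± 0.29 (adjusted p = 0.264, 95% interval -0.08 to 1.20). Against day 7, ND-646 raised 2 and lowered 0 of the 9 genes, beside 17.2% and 17.1% of all genes (34.2% in either direction), and TVB-3166 raised 3 and lowered 2, beside 25.4% and 26.1% (51.5%). Bleomycin raised 3 and lowered 1, beside 22.4% and 23.2% (45.6%), and doxorubicin raised 4 and lowered 0, beside 21.9% and 21.5% (43.4%). Palbociclib raised 4 and lowered 1, beside 22% and 22.9% (44.8%), and alisertib raised 2 and lowered 1, beside 9.55% and 9.49% (19%). These comparisons share the 3 day-7 libraries.

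The drugs were next compared directly, which uses no untreated library. The comparison of TVB-3166 with ND-646 called 0 of the 9 genes with edgeR (0.717% of all genes passed, 0.52% as higher and 0.198% as lower); 1 had an unadjusted p under 0.05 and DESeq2 called 0. The largest differences were in TP53I3, lower in TVB-3166 by 0.56 ± 0.26 on the log2 scale (log2 -0.56, 95% interval -1.15 to 0.03), and in DDB2, higher by 0.41 ± 0.15 (95% interval 0.06 to 0.75, adjusted p = 0.263). The 3 DDB2 values of each drug did not overlap, and without ND-646 replicate 1 the difference was 0.49 (adjusted p = 0.0451). The comparison of doxorubicin with bleomycin also called 0 of 9 with edgeR (12.1% of all genes passed, 5.53% as higher and 6.54% as lower), with 1 at an unadjusted p under 0.05 and 0 by DESeq2. The interval was -0.41 to 0.72 for TP53INP1, the widest of the 9, 0.05 to 1.05 for TP53I3 and -0.78 to 0.31 for MDM4. Without bleomycin replicate 1 MDM4 was lower in doxorubicin by a log2 of -0.50 (adjusted p = 0.0274).

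Drug classes were compared in a single fit of all 24 libraries. DNA-damaging drugs against lipogenesis inhibitors called 5 of the 9 genes, 4 as higher and 1 as lower (47.6% of all genes passed, 23.5% as higher and 24.1% as lower). DDB2 was lower with the DNA-damaging drugs by a log2 of -0.76 ± 0.10 (adjusted p = 2.105e-06), and the 6 libraries of each class did not overlap. ZMAT3 was higher by 0.46 ± 0.12 (adjusted p = 0.00301), also without overlap. PPM1D was higher by 0.39 ± 0.11 (adjusted p = 0.00587), BTG2 by 0.45 ± 0.15 (adjusted p = 0.0209) and MDM2 by 0.18 ± 0.07 (adjusted p = 0.0440). The DDB2, ZMAT3 and PPM1D calls held with each of the 12 libraries left out.

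The BTG2 call was lost without ND-646 replicate 1 (log2 0.35), TVB-3166 replicate 1 (log2 0.40) or 2 (log2 0.39) or bleomycin replicate 3 (log2 0.38). The MDM2 call was lost without ND-646 replicate 1 (log2 0.15), TVB-3166 replicate 1 (log2 0.17) or 3 (log2 0.16), bleomycin replicate 2 (log2 0.15) or 3 (log2 0.15), or doxorubicin replicate 2 (log2 0.17) or 3 (log2 0.16), and in a fit of these 4 groups only (adjusted p = 0.0876). TP53INP1 and MDM4, which rose with all drugs against day 0, did not pass between these classes. The 95% interval was -0.59 to 0.24 for TP53INP1 and -0.27 to 0.39 for MDM4.

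DNA-damaging drugs against cell-cycle kinase inhibitors called 2 of the 9 genes, 1 in each direction (32.7% of all genes passed, 16.2% as higher and 16.5% as lower). DDB2 was higher with the DNA-damaging drugs by 0.48 ± 0.10 (adjusted p = 0.000931) and SESN1 was lower by a log2 of -0.56 ± 0.12 (adjusted p = 0.000924). Both calls held with each library left out. The libraries of these classes overlapped for both genes, while those of palbociclib and of alisertib did not overlap with each other in either. MDM4, at 0.29 ± 0.16 (adjusted p = 0.168), was 0.43 (adjusted p = 0.0163) without bleomycin replicate 1.

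A further pair of comparisons was chosen after the values were seen, and their values are given as descriptions. Lipogenesis inhibitors stood above cell-cycle kinase inhibitors in DDB2 by 1.23 ± 0.10 on the log2 scale, without overlap, and below them in BTG2 by a log2 of -0.78 ± 0.15. The BTG2 difference came from palbociclib, at a mean of 29.1 CPM. Alisertib, at 7.11 CPM, averaged below both ND-646 (7.44 CPM) and TVB-3166 (9.39 CPM). Over all genes, 48.5% passed in this comparison (24.7% as higher and 23.9% as lower), and 28.4% in the one that follows (14.8% and 13.6%). Palbociclib stood above the mean of the other 5 drugs in BTG2 by 1.67 ± 0.15, in TP53INP1 by 1.09 ± 0.20 and in SESN1 by 0.59 ± 0.12, and below it in DDB2 by a log2 of -1.03 ± 0.12. In these 4 genes no palbociclib library overlapped with any library of another drug. In MDM4 and MDM2, palbociclib differed from the other drugs by -0.16 ± 0.18 and 0.00 ± 0.08.

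**Figure D3:**
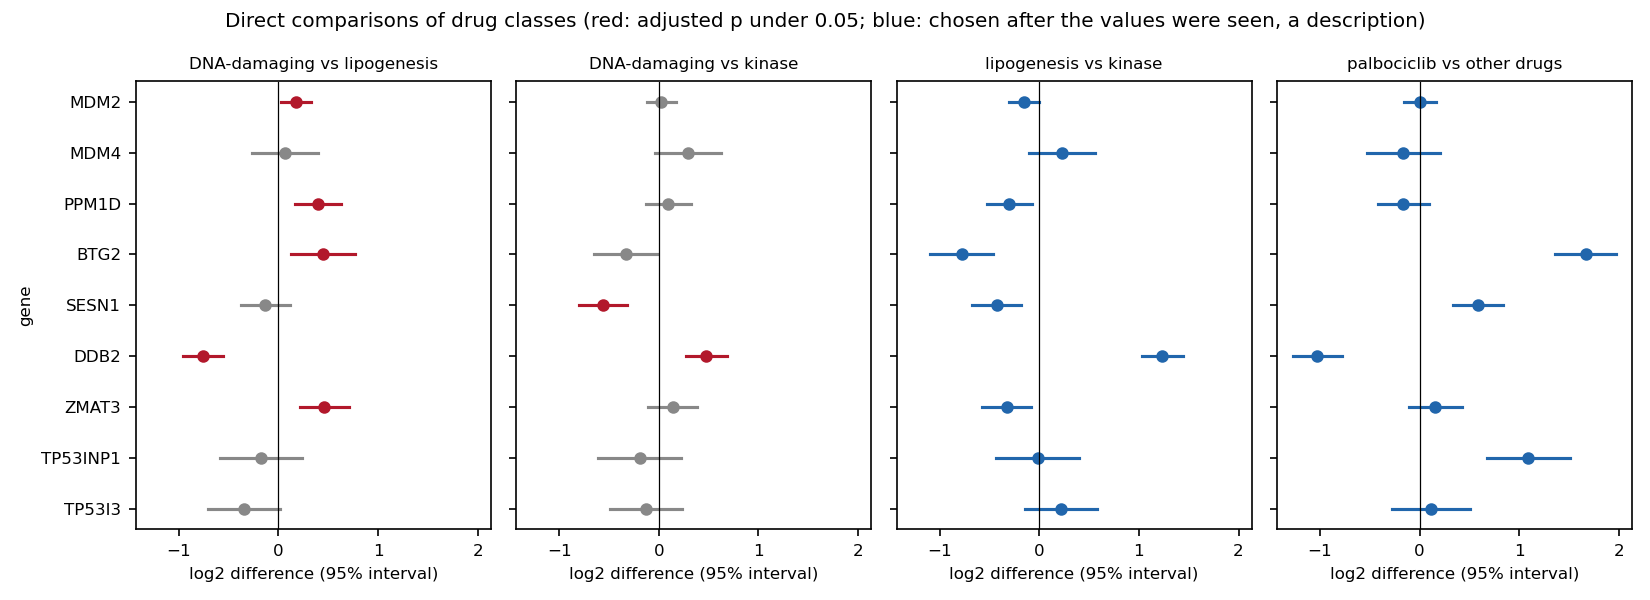
log2 difference (x axis) with its 95% interval (lines) for each gene in the 4 comparisons of drug classes, the first-named class minus the second; red marks an adjusted p under 0.05, grey no call, and blue the comparisons chosen after the values were seen. DDB2 lies at -0.76, 0.48, 1.23 and -1.03 from left to right, and MDM4 intervals include 0 in all 4.

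The wider p53 pathway was described with a list of 40 other p53 target genes, of which 35 were in the table, and a list of 27 symbols of regulators, of which 25 were. RFWD2 is an older symbol of COP1, which is in the table and counted once, and TP73 was on the list but not in the table. Against day 0 the other targets included 14 that rose and 8 that fell with ND-646, 15 and 9 with TVB-3166, 13 and 6 with bleomycin, 10 and 8 with doxorubicin, 11 and 9 with palbociclib and 9 and 7 with alisertib. Of all genes, 19.1% rose and 18.8% fell with ND-646, 27.4% and 27.7% with TVB-3166, 24.1% and 25.3% with bleomycin, 23.7% and 24.8% with doxorubicin, 26% and 27.2% with palbociclib and 17.7% and 19.6% with alisertib. The median log2 fold change of the list ran from -0.02 in alisertib to 0.18 in bleomycin, beside medians over all genes of -0.01 to 0.02. In 7 of the 35 the rise passed with all 6 drugs: GDF15, BBC3, PMAIP1, GADD45A, TNFAIP8, PRKAB1 and TNFRSF10B. In POLH and FDXR the fall did. Of all genes tested with all 6 drugs, 6.51% rose and 7.79% fell with every one. With edgeR 0 of the 35 passed between untreated day 7 and day 0, where 11 had an unadjusted p under 0.05. Against untreated day 7 the list held 13 that rose and 5 that fell with ND-646, and 13 and 10 with TVB-3166. With bleomycin it held 13 and 6, with doxorubicin 9 and 5, with palbociclib 7 and 8 and with alisertib 2 and 2. The shares of all genes were those given earlier for day 7, for example 9.55% higher and 9.49% lower with alisertib. The genes named as passing with all 6 drugs refer to day 0 only.

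GDF15, a secreted stress cytokine, had the largest rise of the list. It was at 1.09, 1.73 and 1.89 CPM at day 0 and reached 192, 69.0 and 86.4 CPM in ND-646. Its log2 fold change was 6.20 ± 0.46 in ND-646 (adjusted p = 3.197e-05) and 3.28 ± 0.29 in palbociclib (adjusted p = 1.131e-05), close to its value in alisertib. BBC3 (PUMA), which triggers apoptosis at mitochondria, rose by 0.97 in palbociclib to 3.10 in ND-646. PMAIP1 (NOXA), which acts in the same step, rose by 0.94 in palbociclib to 2.29 in bleomycin. GADD45A, which acts in arrest and repair, rose by 0.61 to 1.71, and TNFAIP8 by 0.68 to 1.54. These values are against day 0, where BBC3, PMAIP1 and GADD45A averaged 2.51, 2.27 and 6.90 CPM. Untreated day-7 cells averaged 4.36, 3.57 and 10.5 CPM of these genes, and palbociclib 4.93, 4.36 and 10.5 CPM. GDF15 and TNFAIP8 averaged 3.17 and 3.95 CPM at untreated day 7, beside 15.2 and 9.81 CPM in palbociclib. In BBC3, PMAIP1 and GADD45A the palbociclib estimate was the lowest of the 6 drugs, whereas in TP53INP1 and BTG2 it was the highest; the difference between these patterns was not tested. The GADD45A call in palbociclib was lost without untreated day-0 replicate 1 (log2 0.42) or 3 (log2 0.62) and without palbociclib replicate 1 (log2 0.61) or 2 (log2 0.47). The TNFAIP8 call in alisertib was lost without untreated day-0 replicate 2 (log2 0.70) and without alisertib replicate 2 (log2 0.55) or 3 (log2 0.65).

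CDKN1A (p21), the cell-cycle inhibitor by which p53 stops division, rose with 4 of the 6 drugs. It was at 8.31, 20.6 and 17.8 CPM at day 0, at 86.5, 30.5 and 49.2 CPM in ND-646 and at 47.2, 36.1 and 39.5 CPM in TVB-3166. The log2 fold change was 1.82 ± 0.42 in ND-646 (adjusted p = 0.00907), 1.41 ± 0.26 in TVB-3166 (adjusted p = 0.000821), 1.17 ± 0.28 in bleomycin (adjusted p = 0.00685) and 0.73 ± 0.26 in palbociclib (adjusted p = 0.0327). Doxorubicin, at 20.9, 19.2 and 17.4 CPM, gave 0.32 ± 0.27 (adjusted p = 0.346), and alisertib, at 10.97, 12.98 and 9.45 CPM, gave -0.48 ± 0.28 (adjusted p = 0.192). The alisertib value rests on untreated day-0 replicate 1, the lowest day-0 library, without which CDKN1A was lower in alisertib (log2 -0.78, adjusted p = 0.00110). Untreated day-7 cells averaged 11.9 CPM of CDKN1A (9.88 to 14.9 CPM). The alisertib libraries overlapped with this range, while those of every other drug, doxorubicin included, lay above it. The palbociclib call was lost without any of palbociclib replicates 1, 2 and 3 (log2 0.70, 0.72 and 0.76).

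At the other end of the list, FDXR, a mitochondrial reductase, fell in all 6 drugs, by 0.70 on the log2 scale in ND-646 up to a log2 of -1.20 in palbociclib. POLH, a polymerase that copies past damaged bases, had log2 values of -0.40 in alisertib to -1.30 in ND-646. CYFIP2 fell with 5 drugs, its value in alisertib being -0.20 (adjusted p = 0.332). SERTAD1 fell in doxorubicin (log2 -0.72), palbociclib (log2 -1.20) and alisertib (log2 -0.81). KITLG, the ligand of the receptor KIT, fell in ND-646 (log2 -2.33) and TVB-3166 (log2 -1.36) and did not pass with the other 4 drugs. Some of these calls changed when a library was left out. FDXR in ND-646 lost its call without untreated day-0 replicate 1 (log2 -0.62) or 2 (log2 -0.72) and without ND-646 replicate 2 (log2 -0.63) or 3 (log2 -0.59), POLH in alisertib without alisertib replicate 2 (log2 -0.36) or 3 (log2 -0.35), and CYFIP2 in TVB-3166 without TVB-3166 replicate 2 (log2 -0.46) or 3 (log2 -0.58). SERTAD1 passed as lower in ND-646 without ND-646 replicate 1 (log2 -0.97), in TVB-3166 without untreated day-0 replicate 1 (log2 -0.49) or TVB-3166 replicate 1 (log2 -0.58), and in bleomycin without untreated day-0 replicate 1 (log2 -0.54) or bleomycin replicate 1 (log2 -0.54). KITLG passed as lower in bleomycin without bleomycin replicate 1 (log2 -0.90), and as higher in palbociclib without palbociclib replicate 2 (log2 0.45) and in alisertib without untreated day-0 replicate 3 (log2 0.48) or alisertib replicate 2 (log2 0.49). BAX, RRM2B and FBXO22 passed with none of the 6 drugs by edgeR.

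Among the 25 regulators, 0 rose and 5 fell with ND-646, 1 and 8 with TVB-3166, 4 and 5 with bleomycin, 6 and 7 with doxorubicin, 4 and 8 with palbociclib and 2 and 5 with alisertib. The shares of all genes were those given for the target list, for example 19.1% higher and 18.8% lower with ND-646 and 27.4% and 27.7% with TVB-3166. The median log2 fold change of the regulators ran from -0.16 in alisertib to 0.08 in bleomycin, beside -0.01 to 0.02 over all genes. With edgeR 0 passed between untreated day 7 and day 0, where 8 had an unadjusted p under 0.05. Against untreated day 7, 1 regulator rose and 4 fell with ND-646, 1 and 7 with TVB-3166 and 6 and 5 with bleomycin. The counts were 9 and 5 with doxorubicin, 6 and 5 with palbociclib and 1 and 1 with alisertib. The shares of all genes were those given earlier for day 7. Changes of single regulators are given against day 0. CHEK1, a checkpoint kinase of the S and G2 phases, fell with every drug. It was at 58.5, 53.1 and 65.4 CPM at day 0 and at 9.05, 11.8 and 10.6 CPM in ND-646, with log2 fold changes from -0.67 in alisertib to -2.50 in ND-646. DAXX, a histone chaperone that also binds MDM2, fell with every drug with log2 values of -0.33 to -0.63. The DAXX call was lost in bleomycin without untreated day-0 replicate 2 (log2 -0.32) or bleomycin replicate 3 (log2 -0.32), and in alisertib without alisertib replicate 2 (log2 -0.32) or 3 (log2 -0.33).

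CHEK2, the kinase that passes signals from ATM to p53, fell in ND-646 (log2 -1.64), TVB-3166 (log2 -0.89), bleomycin (log2 -0.79) and doxorubicin (log2 -0.31). The doxorubicin call was lost without untreated day-0 replicate 2 (log2 -0.31) or 3 (log2 -0.23) and without any of doxorubicin replicates 1, 2 and 3 (log2 -0.30, -0.31 and -0.33). PRKDC, a kinase of double-strand break repair, fell in ND-646 (adjusted p = 0.0164) and TVB-3166 (log2 -0.97); the ND-646 call was lost without untreated day-0 replicate 1 (log2 -0.84). KAT5, an acetyltransferase that acts on p53, fell in bleomycin (log2 -0.58), doxorubicin (log2 -0.54), palbociclib (log2 -0.88) and alisertib (log2 -0.51). ATM, the kinase that senses double-strand breaks, rose with 5 drugs, by 0.47 in bleomycin to 1.05 in palbociclib, and its ND-646 value was 0.49 ± 0.29 (adjusted p = 0.209), or 0.78 (adjusted p = 0.000376) without ND-646 replicate 1. The bleomycin call of ATM was lost without untreated day-0 replicate 1 (log2 0.42) or 2 (log2 0.43) and without bleomycin replicate 2 (log2 0.38) or 3 (log2 0.41). These ATM values are against day 0, where it averaged 35.7 CPM, while untreated day-7 cells averaged 49.5 CPM. It averaged 49.3 CPM in bleomycin, 50.2 in ND-646, 52.8 in doxorubicin, 58.3 in TVB-3166, 58.7 in alisertib and 74.0 in palbociclib.

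HIPK2, a kinase that phosphorylates p53, rose in alisertib (log2 0.97), palbociclib (log2 0.91) and doxorubicin (log2 0.78). Its doxorubicin call was lost without untreated day-0 replicate 2 (log2 0.70) or 3 (log2 0.66) and without doxorubicin replicate 2 (log2 0.75) or 3 (log2 0.58), and it passed in ND-646 without ND-646 replicate 1 (log2 0.81). DYRK2, another such kinase, rose in bleomycin (log2 0.79), palbociclib (log2 0.56) and doxorubicin (log2 0.53), and passed in ND-646 without ND-646 replicate 1 (log2 0.77) and in TVB-3166 without TVB-3166 replicate 1 (log2 0.33).

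TP53BP1, which marks double-strand breaks, rose by small amounts in bleomycin (log2 0.34), palbociclib (log2 0.34) and doxorubicin (log2 0.30). The calls were lost in all 3 drugs without untreated day-0 replicate 2 (log2 0.26, 0.27 and 0.22) or 3 (log2 0.32, 0.31 and 0.27). They were also lost in bleomycin without its replicate 1 (log2 0.31) or 3 (log2 0.33), in palbociclib without its replicate 2 (log2 0.33) or 3 (log2 0.32), and in doxorubicin without its replicate 1 (log2 0.32), 2 (log2 0.30) or 3 (log2 0.27). In alisertib TP53BP1 passed as higher without untreated day-0 replicate 1 (log2 0.31). TP63, a relative of p53 whose highest library stood at 1.98 CPM, rose in bleomycin (log2 2.59 ± 0.53, adjusted p = 0.00306) and doxorubicin (log2 1.51 ± 0.54, adjusted p = 0.0391). The doxorubicin call was lost without untreated day-0 replicate 1 (log2 0.97) and without doxorubicin replicate 1 (log2 1.24) or 3 (log2 1.56), and TP63 passed in palbociclib without palbociclib replicate 2 (log2 1.68).

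**Figure D4:**
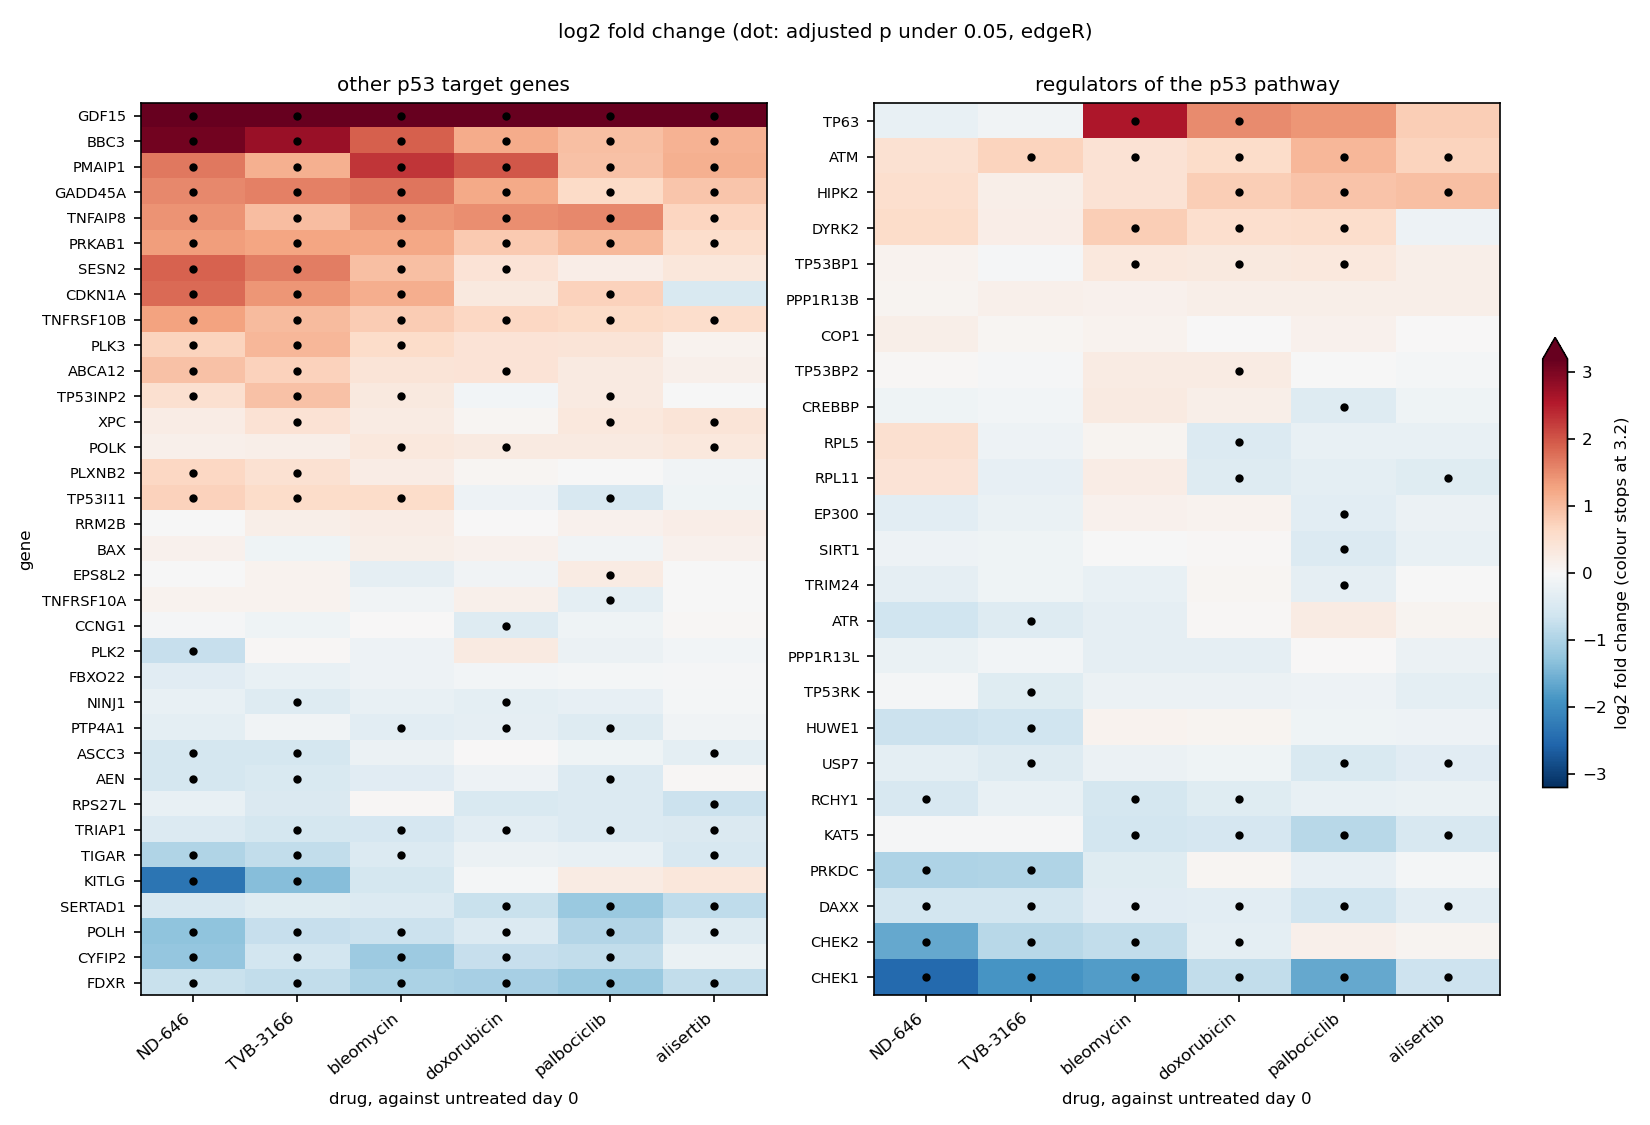
log2 fold change against untreated day 0 (colour; the scale stops at 3.2, which GDF15 exceeds) of the 35 other p53 target genes (left) and the 25 regulators (right) in the 6 drugs; rows are ordered by the mean over drugs and dots mark an adjusted p under 0.05. GDF15, BBC3, PMAIP1, GADD45A and TNFAIP8 carry 6 dots each at the top of the left panel, and CHEK1 carries 6 at the bottom of the right panel.

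The 8 genes outside human chromosome 8 (Entrez IDs 4193 for MDM2, 4194 for MDM4, 8493 for PPM1D, 7832 for BTG2, 27244 for SESN1, 1643 for DDB2, 64393 for ZMAT3 and 9540 for TP53I3) lie, on GRCh37 and the gene models of GENCODE, at chr12:69201957-69239324 on the plus strand (MDM2), chr1:204485507-204527248 on the plus strand (MDM4), chr17:58677554-58743641 on the plus strand (PPM1D) and chr1:203274619-203278730 on the plus strand (BTG2). SESN1 lies at chr6:109305512-109416049 on the minus strand, DDB2 at chr11:47236016-47260768 on the plus strand, ZMAT3 at chr3:178677909-178790003 on the minus strand and TP53I3 at chr2:24300303-24308731 on the minus strand. All 9 are protein-coding, and a count takes in the reads of the whole gene, so transcripts of the same gene cannot be told apart. In bulk RNA, fewer cells with a transcript and less of it per cell also cannot be told apart.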

How the data were processed

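RNA of SKBR3 cells was sequenced by the authors (paired-end reads, Illumina). Per the labels and the study's methods, reads were aligned with HISAT2 to GRCh37 and quantified with StringTie; counting settings, including strand, are not given in the sources used here. The deposited file holds raw read counts per gene, 1 column per library, and each of the 24 columns was mapped by name to a group of 3. The 9 genes and the pathway lists were chosen with earlier results of these data known.

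Counts were tested with edgeR 4.0.16 (R 4.3.3; limma 3.58.1): low-count filter by filterByExpr, TMM normalisation, quasi-likelihood test (2-sided), Benjamini-Hochberg adjustment over all genes tested, called at an adjusted p under 0.05. Each pair of groups was fitted alone (the study compared pairs with DESeq2); drug classes were contrasted in a fit of all libraries. Of 19 comparisons, 2 were added after the values were seen. The SE is the log2 fold change divided by the root of its F statistic. Levels are CPM with TMM over all libraries, divided by exon length (GENCODE, GRCh37) where genes are compared. An exact permutation test of 3 against 3 libraries cannot go below p = 0.1 and was not used. From each list the text names up to 5 genes with the highest and up to 5 with the lowest mean log2 fold change over the drugs among genes called at least once, plus CDKN1A and GDF15; further genes named beside counts were picked after their values were seen.

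On simulated data for ND-646 against day 0 (13333 genes), 98 genes were given a 2-fold and 97 a 4-fold change. Of these, 53.1% and 96.9% were recovered, with 9 false calls. In the real comparison 37.9% of genes passed, a far larger share, so recovery there may differ and was not tested. Alternatives were DESeq2 1.42.0, size factors by RLE, the filter left out or set at 10 counts per library, other libraries in the fit, the replicate number as a block, a 2-fold threshold with an unadjusted p under 0.05, and each library left out in turn. Same-numbered libraries deviated together (all 3 correlations over 0.1) for TVB-3166 with ND-646 (0.213 to 0.380), alisertib with untreated day 7 (0.106 to 0.218) and bleomycin with untreated day 7 (0.107 to 0.142), and not in the other 12 pairs of groups.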

Additional observations from a re-analysis of the deposited data

How the results depend on the processing

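No called value changed direction under any alternative; 71 values called in neither fit changed sign. Of the counts of the 9 genes passing, a 2-fold threshold with an unadjusted p under 0.05 moved most: against day 0, to 2 for each of TVB-3166, bleomycin and doxorubicin, 3 for palbociclib and 1 for alisertib; against day 7, to 1 for each of ND-646, TVB-3166, bleomycin and doxorubicin, 3 for palbociclib and 0 for alisertib; and to 0 in DNA-damaging drugs against lipogenesis inhibitors, 0 against cell-cycle kinase inhibitors and 1 in lipogenesis against cell-cycle kinase inhibitors. This threshold asks for a larger fold by construction. A fit of all 24 libraries gave 5 in ND-646 against day 0, adding SESN1 (adjusted p = 0.0157) and TP53I3 (0.0360), and 1 in alisertib against day 7, and a fit of the compared groups only gave 3 in lipogenesis against cell-cycle kinase inhibitors; the cause was not tested. Counts for the comparisons chosen after the values were seen (lipogenesis against cell-cycle kinase inhibitors, palbociclib against the other drugs) say only how many genes lay under the threshold and are no evidence of a difference. DESeq2, RLE size factors and the filters left every count within 1.5 times that reported. DESeq2 added SESN1 in ND-646 against day 0 (adjusted p = 0.0439), BTG2 in TVB-3166 against day 0 (0.0489) and day 7 (0.0433), PPM1D in ND-646 (0.0233) and DDB2 in doxorubicin (0.0440) against day 7.

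Leaving out single libraries gave 1 to 3 passing genes for ND-646 against day 0, 2 to 4 for TVB-3166, 3 to 5 for bleomycin, 4 to 5 for both doxorubicin and palbociclib, and 3 for alisertib. Against day 7 it gave 0 to 4 for ND-646, 3 to 6 for TVB-3166, 2 to 4 for bleomycin, 3 to 4 for doxorubicin, 3 to 5 for palbociclib and 1 to 3 for alisertib. It gave 0 to 1 for TVB-3166 against ND-646 and for doxorubicin against bleomycin, 3 to 5 for DNA-damaging drugs against lipogenesis inhibitors, 2 to 3 for DNA-damaging drugs against cell-cycle kinase inhibitors, 3 to 5 for lipogenesis against cell-cycle kinase inhibitors, 4 for palbociclib against the other drugs and 0 for untreated day 7 against day 0.

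With the replicate number as a block, no call among the 9 genes changed in the 3 comparisons where all 3 correlations were over 0.1. Elsewhere this rule was not met, though single correlations reached 0.33 (doxorubicin with bleomycin, replicate 3), so whether those libraries are paired is not known. There the block raised the count for untreated day 7 against day 0 from 0 to 1 (MDM4, log2 0.55, adjusted p = 0.0469 with edgeR) and for palbociclib against day 7 from 5 to 7. It lost DDB2 in TVB-3166 against day 0 (adjusted p = 0.0525), and left the other counts within 1 of those reported. Counts were lowest in TP53I3, at 56 to 166 reads per library. For the 21 named pathway genes against day 0, leaving out a library lost 52 of 564 calls and gave 16 others, the 2-fold threshold lost 50 of 94 and gave 1 other, the remaining alternatives lost 3 of 562 and gave 9 others (such as KITLG as higher in alisertib by DESeq2, adjusted p = 0.0309), and no call changed direction.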

Other observations

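Over the 24 libraries, which share depth, groups and normalisation, the log2 CPM of each of the 9 genes was compared with that of 14077 genes, as a description. The gene most alike was RGPD5 for TP53INP1 (Pearson r = 0.951), CLDN15 for MDM4 (0.929), KAZALD1 for DDB2 (0.929), ADCY5 for BTG2 (0.925), ZBTB33 for ZMAT3 (0.905), MDC1 for PPM1D (0.896), KLHL11 for MDM2 (0.831), TSPYL1 for SESN1 (0.831) and CD2BP2 for TP53I3 (0.761). RGPD5 belongs to a family of near-identical copies, between which its reads may have been split. Among the 9 genes themselves, MDM4 and TP53INP1 (0.782) and BTG2 and TP53INP1 (0.741) were the most alike pairs, and BTG2 and DDB2 (-0.697) the most opposed.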
